A study of Neurospora crassa with 6 samples.

Results

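The genes described here are those of Neurospora crassa whose transcripts were raised by heat shock in wild type (wt) and not in the os2 mutant. They were chosen from the deposited FPKM values (fragments per kilobase of transcript and per number of fragments sequenced, a level corrected for transcript length and depth) with 1 added to each value. A member had a log2 ratio of at least 2 between HS and 30°C in wt (wt HS/30), a log2 ratio below 0.5 in os2 for both HS/30 and DS/30 (as 73.3% and 67.6% of the genes over the FPKM floor had), and at least 10 FPKM in its highest library, the floor. Of 9730 genes, 6477 reached that FPKM floor, 820 of these (12.7%) were heat-induced in wt, and 57 met the whole rule, which is 6.95% of the heat-induced genes. The other 763 heat-induced genes are the comparison set used below.

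RNA came from conidia germinated for 5 hr at 30°C in Vogel's medium with 0.05% glucose. Both strains were then kept at 30°C for 1 hr more (30), placed at 45°C for 2 hr (heat shock, HS), or placed at 45°C for 2 hr with the glucose analog 2-deoxyglucose (2-DG; dual stress, DS). The wt strain was OR74A, and the os2 strain was UCLA 80A, a point mutant of os-2 that, by the study's methods, is in another (SL4) background. The os-2 mutation and the rest of that background therefore cannot be told apart in any os2/wt difference, nor can the stress and the longer time in stress/30 ratios. There was 1 library for each of the 6 groups, so no difference had a replicate check, no test was possible, and each ratio compares 1 library with 1 other. Each library was made from a whole culture, in which fewer expressing cells and less RNA per cell cannot be told apart.

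OS-2 is the stress-activated MAP kinase of Neurospora, the counterpart of yeast Hog1. Hyperosmotic stress is signalled from the histidine kinase OS-1 through a phosphorelay to the kinases OS-4, OS-5 and OS-2, and strains lacking OS-2 grow poorly at high osmolarity and resist phenylpyrrole fungicides. Among genes known to need OS-2 are those for glycerol synthesis, catalase-1 and the clock-controlled gene ccg-1, some of them through the transcription factor ASL-1. 2-DG is taken up and phosphorylated like glucose but cannot pass through glycolysis.

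The columns of the 6 libraries summed to between 426267 and 899576 FPKM, yet their median-ratio factors lay between 1.00 and 1.02, so the values were already close to a common scale for most genes. Fragments counted per gene were not analysed, and a low FPKM of a short gene rests on the fewest. The os-2 transcript itself (NCU07024, chromosome IV of assembly NC12, 4948586 to 4952179) stood at 113, 65.1 and 67.1 FPKM in wt at 30, HS and DS. In os2, where a point mutation need not remove it, it stood at 34.3, 37.01 and 37.5 FPKM. It was lower in os2 in each condition, with os2/wt log2 ratios of -1.69, -0.80 and -0.82. At 30°C, 1.73% of the genes over the floor were at -1 or lower.

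The 57 members formed a group with low to moderate transcript levels at 30°C in both strains and a high level in 1 library, wt HS. Their FPKM ran from 0 to 129 in wt 30 (median 4.94), from 10.3 to 2732 in wt HS (median 45.1) and from 0.984 to 1029 in wt DS (median 11.9). In os2 the medians were 4.06 at 30, 3.70 in HS and 4.26 in DS, with highest values of 94.9, 69.2 and 85.2 FPKM. wt HS was the highest of the 6 libraries for 54 members, which the rule favours, against 25.6% of all genes over the floor. The 3 exceptions were NCU01011 and NCU07318, both highest in wt DS, and NCU02849, highest in os2 DS.

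**Figure D1:**
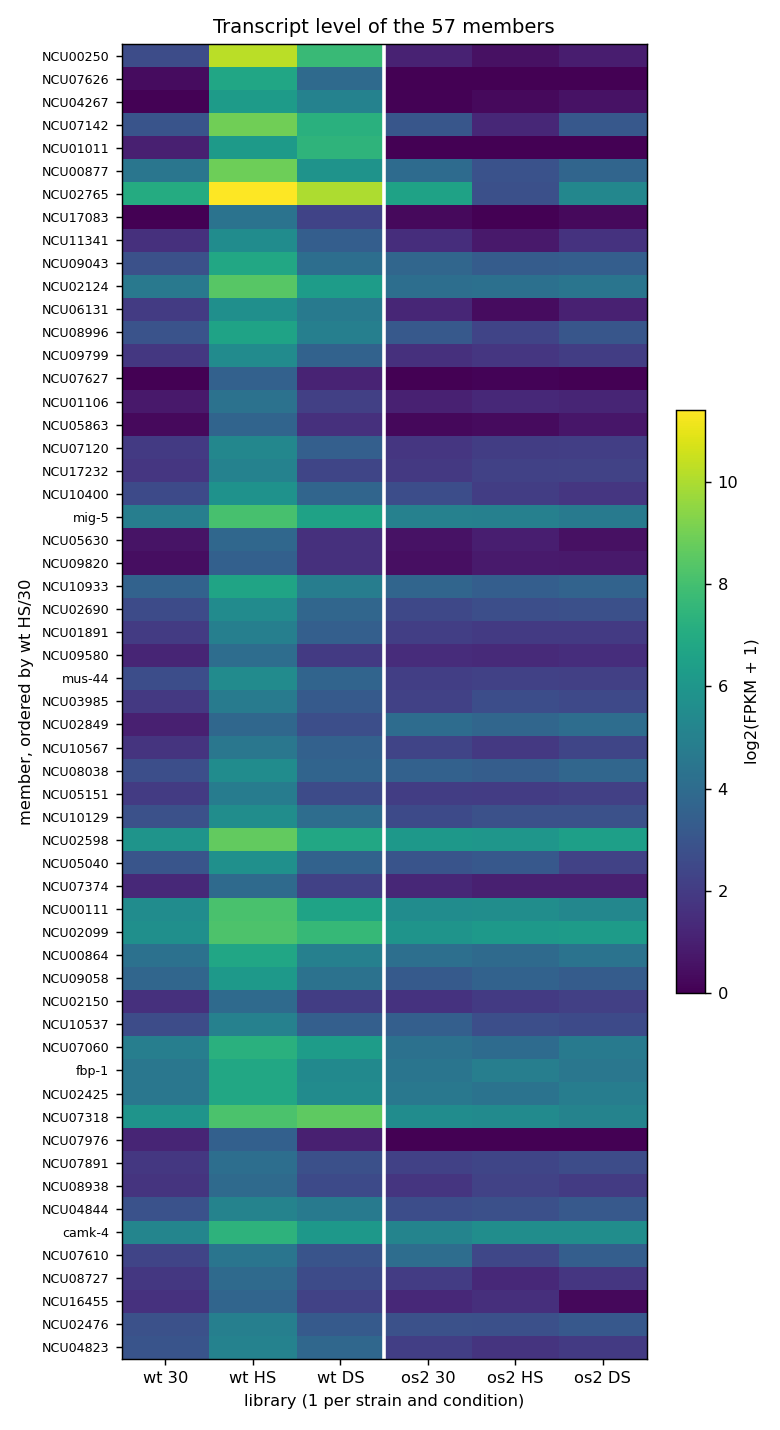
Transcript level of each of the 57 members as log2(FPKM + 1), by library, with members ordered by wt HS/30 and the 3 wt libraries left of the white line. The wt HS column is the brightest for 54 members, and the 3 os2 columns resemble the wt 30 column for most of them.

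The members were not, as a group, silent in os2. Of them, 9 (15.8%) were below 1 FPKM in all 3 os2 libraries, against 12 (0.185%) of all genes over the floor. The rule favours such genes, which pass the floor through wt alone and have os2 values too low for a large ratio, so nothing is read from this excess. Another 28 members had a highest os2 value from 1 to 10 FPKM, and 20 reached 10 FPKM or more. For 44 members both os2 HS and os2 DS lay within 0.5 of os2 30 on the log2 scale, a count whose upper side the rule fixes. At 30°C the strains were within 1 of each other for 52 members, with a median os2/wt log2 ratio of 0. That closeness was general: only 1.73% of all genes over the floor were at -1 or lower and 0.926% at 1 or higher. For the members these shares were 5.26% and 3.51%, which are 3 and 2 genes. The rule used both 30°C libraries, so nothing is read from the difference. Most members thus had about the wt level in unstressed os2, as most genes over the floor did. With columns as deposited, the members were not past the os2 limits at 45°C, as the rule requires.

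The largest wt HS/30 ratio belonged to NCU00250 (chromosome III of assembly NC12, 3172883 to 3174124). It had 5.33 FPKM in wt 30, 1207 in wt HS and 213 in wt DS, and 1.16, 0.439 and 0.867 FPKM in os2 30, HS and DS. By FPKM without the added 1, wt HS was 226-fold wt 30 and 2751-fold os2 HS, the latter fold resting on 0.439 FPKM. With 1 added, the log2 ratio for os2/wt in HS was -9.71. The smallest of the members' log2 ratios for os2/wt at 30°C, -1.55, was also its own. Neither the gene table nor the study names this gene.

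NCU02765 (chromosome I, 9278668 to 9280151), also without a name, was the most abundant member. It stood at 129, 2732 and 1029 FPKM in wt 30, HS and DS, and at 94.9, 5.93 and 38.3 FPKM in os2. The libraries of the strains were close at 30°C and moved in opposite directions at 45°C. By FPKM, wt HS was 21.2-fold above wt 30 and os2 HS 16.0-fold below os2 30. With 1 added, the log2 ratios were 4.39 and -3.79. In DS the log2 ratios were 2.99 in wt and -1.29 in os2.

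NCU07142 and NCU00877 had the same shape with smaller os2 differences. NCU07142 (chromosome VI, 3549 to 4482, near the left end of the sequence) had 6.82, 485 and 149 FPKM in wt 30, HS and DS, against 7.36, 1.44 and 7.97 FPKM in os2. It was level with wt at 30°C, lower in os2 HS (log2 HS/30 of -1.78) and back at its 30°C level in os2 DS. NCU00877 (chromosome I, 6889607 to 6890489) had 21.33, 477 and 57.9 FPKM in wt, against 15.1, 6.24 and 12.2 FPKM in os2, with an os2 HS/30 log2 ratio of -1.16. Of the 57 members, 4 had an os2 HS/30 log2 ratio of -1 or lower, the fourth being NCU07610, against 14.9% of all genes over the floor; the rule admits only the lower side of os2 HS/30, so nothing is read from this count.

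A few members were absent or nearly so in os2 under all conditions. NCU07626 (chromosome IV, 318163 to 319473) had 0.283, 107 and 14.5 FPKM in wt 30, HS and DS and was listed at 0 in the 3 os2 libraries. NCU01011 (chromosome V, 2675584 to 2675970, at 387 bases the shortest member) had 1.00, 74.2 and 172 FPKM in wt and was also listed at 0 in all of os2. NCU07976 (chromosome IV, 3780131 to 3780975) had 1.30, 10.3 and 0.984 FPKM in wt, above the 30°C level in HS alone, and 0 in the os2 libraries. These were the only 3 of the 6477 genes over the floor (0.0463%) listed at 0 in the whole of os2, and no gene over the floor was listed at 0 in the whole of wt. Without the floor there were such genes in both strains. At 0 in all of os2 were 24 genes with a wt value of at least 1 FPKM. At 0 in all of wt were 10 genes with an os2 value of at least 1 FPKM. Reads of both strains were mapped on the 74a_12 reference, and wt was OR74A. A gene lacking from that reference could not be listed for either strain. The rule also favours genes at 0 in os2, which pass the floor through wt alone. Nothing is therefore read from the difference between the strains in these counts. As reads and a genome sequence of UCLA 80A were not analysed here, a gene that is absent or diverged in that strain and a gene that is not transcribed there cannot be told apart.

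NCU04267 (chromosome V, 5430549 to 5432426) came close to these, with 0.0605, 75.7 and 32.3 FPKM in wt 30, HS and DS, against 0.0541, 0.204 and 0.462 FPKM in os2. Both strains were near 0 at 30°C, and only the wt libraries at 45°C held an appreciable level. NCU17083 (chromosome VI, 1267574 to 1269860) was likewise near 0 apart from stressed wt, with 0, 19.6 and 3.94 FPKM in wt, against 0.21, 6.04e-09 and 0.24 FPKM in os2. NCU07627 had 0, 10.6 and 1.20 FPKM in wt, against 0, 0.0928 and 0 FPKM in os2.

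**Figure D2:**
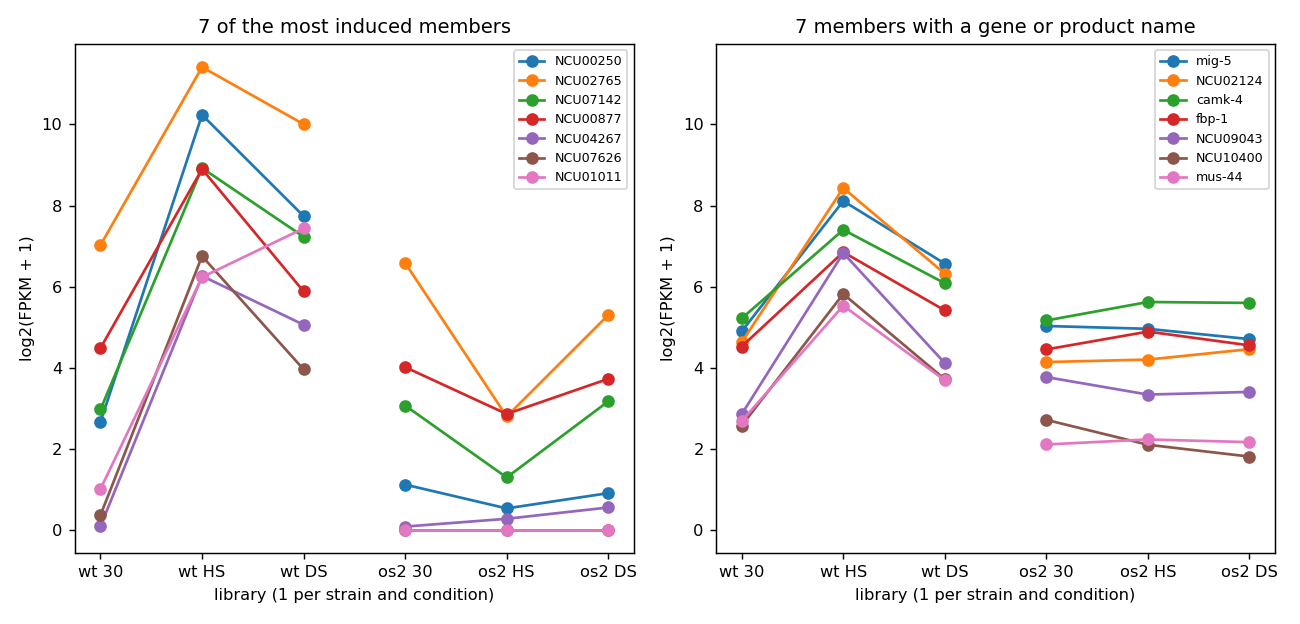
log2(FPKM + 1) of 7 of the most induced members (left) and of 7 members with a gene or product name (right) in the 6 libraries; lines join the 3 libraries of a strain. Each gene peaks in wt HS except NCU01011, which is highest in wt DS at 172 FPKM. Most os2 lines are nearly flat or dip in HS. Those of fbp-1 and camk-4 are slightly higher in HS. NCU10400 falls from os2 30 to HS and further to DS, and NCU04267 rises slightly in that order. NCU07626 and NCU01011 lie on each other at 0 in os2.

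Of the 57 members, 11 have a name in the gene table or in the study and 46 have none. The named members included several enzymes that act on aldehydes, alcohols and other small molecules. mig-5 (NCU01759, chromosome II, 2527979 to 2529405), an aldo-keto reductase, an enzyme class that reduces aldehydes and ketones with NADPH, had 28.8, 276 and 93.7 FPKM in wt 30, HS and DS, against 31.6, 30.1 and 25.0 FPKM in os2. The 3 os2 values lay beside the wt 30 value, and the wt HS value was 9.59-fold that of wt 30. NCU02124 (chromosome I, 1165504 to 1167190), a dienelactone hydrolase, an enzyme class that opens lactone rings in the breakdown of aromatic compounds, had 23.7, 345 and 78.8 FPKM in wt, against 16.6, 17.3 and 20.9 FPKM in os2. Its wt HS level was 19.9-fold that of os2 HS.

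Both named alcohol dehydrogenases had only just passed the wt limit. Alcohol dehydrogenase III (NCU02476, chromosome I, 2438853 to 2440919) had 6.12, 29.4 and 8.47 FPKM in wt 30, HS and DS, against 6.15, 5.81 and 7.71 FPKM in os2. For this gene wt DS was hardly above os2 DS, with a log2 os2/wt ratio of -0.12. The NADP-dependent alcohol dehydrogenase C (NCU04823, chromosome VI, 946249 to 948132) had 6.92, 32.0 and 12.8 FPKM in wt, against 3.34, 2.26 and 2.84 FPKM in os2, lower in os2 than in wt in every condition.

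L-amino acid oxidase (NCU01106, chromosome V, 2935356 to 2938332), which deaminates amino acids and releases hydrogen peroxide, had 0.726, 18.6 and 3.43 FPKM in wt 30, HS and DS, against 1.06, 1.52 and 1.28 FPKM in os2. It was a low transcript everywhere but in wt HS. The taurine dioxygenase NCU07610 (chromosome IV, 248761 to 250797), of an enzyme family that frees sulfite from taurine in bacteria, differed between the strains before stress. Its FPKM was 4.01, 20.8 and 6.78 in wt and 16.0, 4.43 and 9.55 in os2, so that at 30°C os2 was 4.0-fold above wt and in HS wt was 4.70-fold above os2. The log2 HS/30 ratios were 2.12 in wt and -1.65 in os2.

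2 named members belong to central metabolism and calcium signalling. fbp-1 (NCU04797, chromosome VI, 854430 to 856333), for fructose bisphosphatase of gluconeogenesis, had 21.9, 114 and 41.6 FPKM in wt 30, HS and DS, against 20.8, 28.6 and 22.4 FPKM in os2. camk-4 (NCU09212, chromosome I, 5860484 to 5864300), for a calcium/calmodulin-dependent protein kinase, had 36.1, 168 and 66.7 FPKM in wt, against 34.8, 48.1 and 47.4 FPKM in os2. Both were level between the strains at 30°C, and both were somewhat higher in os2 HS than in os2 30, with log2 ratios of 0.44 and 0.46 just below the limit of the rule.

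The remaining named members concern lipids and DNA. The caleosin-domain gene NCU09043 (chromosome VII, 431020 to 432418), whose plant relatives are calcium-binding proteins of lipid droplets, had 6.21, 113 and 16.3 FPKM in wt 30, HS and DS, against 12.6, 9.08 and 9.55 FPKM in os2. At 30°C it was 2.03-fold higher in os2, and in wt HS it was 12.4-fold above os2 HS. The phospholipase gene NCU10400 (PldA, chromosome IV, 1261965 to 1265743) had 4.94, 55.4 and 12.1 FPKM in wt, against 5.54, 3.27 and 2.49 FPKM in os2. mus-44 (NCU07066, chromosome VI, 285666 to 287913), with the synonym rad10, the name of a nucleotide excision repair gene in budding yeast, had 5.41, 45.1 and 11.9 FPKM in wt, against 3.29, 3.68 and 3.47 FPKM in os2.

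Most of the 18 members with at least 100 FPKM in wt HS had os2 levels that stayed near their 30°C value. NCU02598 had 59.0, 407 and 115 FPKM in wt 30, HS and DS, against 66.2, 63.2 and 85.2 FPKM in os2. NCU02099 had 50.1, 301 and 197 FPKM in wt, against 58.2, 69.2 and 76.7 FPKM in os2. NCU00111 had 45.2, 282 and 96.1 FPKM in wt, against 45.3, 48.0 and 38.5 FPKM in os2. These 3 were among the best expressed members in os2, and they differed from wt chiefly in lacking the step at 45°C.

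Other unnamed members with a wt HS/30 log2 ratio above 3.5 stayed below 10 FPKM in os2. NCU11341 had 1.97, 46.5 and 9.56 FPKM in wt 30, HS and DS, against 1.81, 0.702 and 2.23 FPKM in os2. NCU06131 had 2.92, 50.9 and 25.0 FPKM in wt, against 1.35, 0.298 and 1.06 FPKM in os2. NCU08996 had 6.52, 97.4 and 29.1 FPKM in wt, against 8.02, 3.99 and 7.19 FPKM in os2, where the 30 and DS values were above wt 30. In each of these the os2 HS library was the lowest of the 6. NCU09799, in contrast, had 2.57, 44.9 and 10.9 FPKM in wt, against 2.02, 2.48 and 3.26 FPKM in os2, where its DS/30 log2 ratio of 0.50 was the closest of all members to the limit.

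The limits of the rule cut through continuous values. Just inside the wt limit were NCU04823, NCU02476 and NCU16455 with wt HS/30 log2 ratios of 2.06, 2.09 and 2.10, and just outside were NCU08469, NCU00623 and NCU02148 with 1.99, 1.98 and 1.98. For os2 HS/30 the nearest inside were NCU08938, NCU03985 and camk-4 (0.48, 0.48 and 0.46) and the nearest outside NCU09035, NCU05619 and NCU07983 (0.53, 0.56 and 0.62). For os2 DS/30 they were NCU09799, NCU02150 and NCU04844 inside (0.50, 0.48 and 0.48) and cut-1, NCU07333 and NCU01064 outside (0.52, 0.55 and 0.57). At the floor the highest FPKM was 10.3, 10.4 and 10.6 for NCU07976, NCU09820 and NCU07627, against 9.25, 8.80 and 8.35 for NCU12087, NCU11293 and NCU06153 below it.

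**Figure D3:**
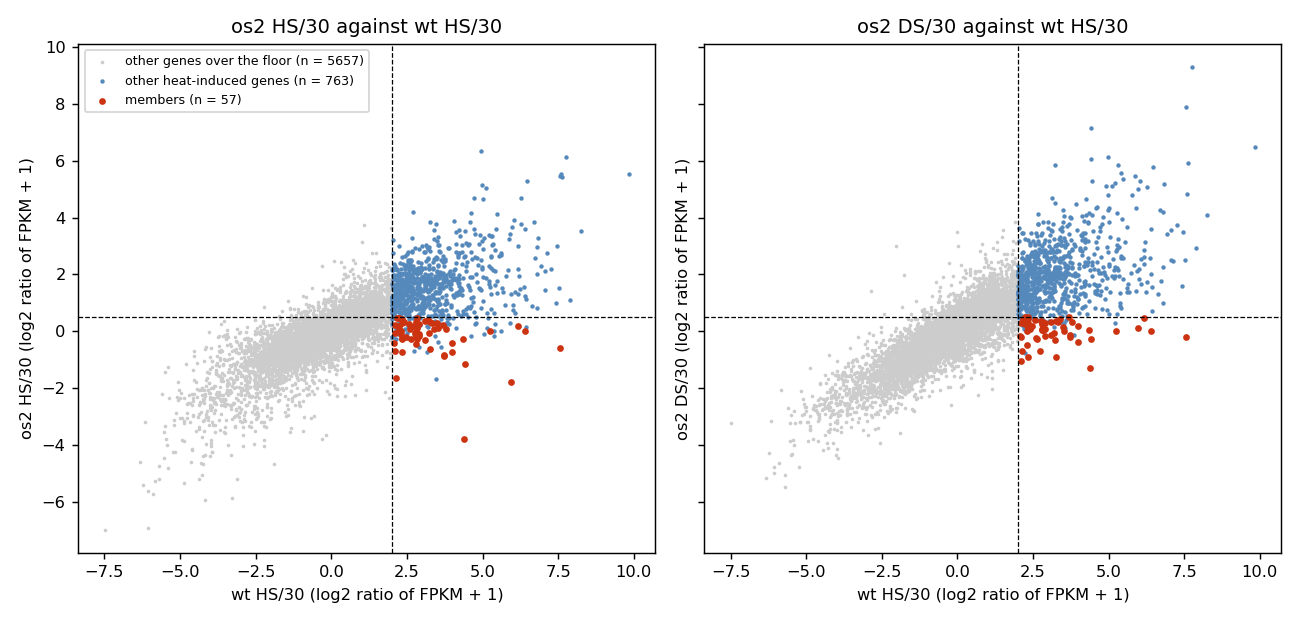
log2 ratios of os2 HS/30 (left) and os2 DS/30 (right) against wt HS/30 for the 6477 genes over the floor; dashed lines mark the limits of the rule at 2 and 0.5. The 57 members fill the lower right corner by construction, next to other heat-induced genes whose os2 ratios have medians of 1.53 and 1.95.

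Most of the 820 genes heat-induced in wt were above the os2 limit too: 674 (82.2%) reached 0.5 in both os2 ratios, 67 (8.17%) reached it in DS alone and 22 (2.68%) in HS alone. The members' median log2 ratio of os2 HS/30 was -0.04 and of os2 DS/30 0.06, close to the medians of -0.05 and -0.03 over all genes over the floor, as the rule requires. With columns scaled to the same total, every os2 HS/30 log2 ratio is moved by 0.77 before the 1 is added, and the median of these 57 genes became 0.52 beside 0.69 for all genes over the floor. On that scale 6 of them reached 1 in os2 HS/30 and 2 in os2 DS/30, and all 57 still had a lower HS/30 ratio in os2 than in wt.

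The response of the members to DS in wt was not part of the rule, although its ratios share the wt 30 and wt HS libraries with it. In wt DS the members were on the whole above 30°C and below HS, with 54 of the 57 (94.7%) in that order, as were 681 of the 763 other heat-induced genes (89.3%) and 26.7% of all genes over the floor. The median member kept 28.8% of its wt HS level in wt DS, against 36.99% for the other heat-induced genes. NCU07976 was the only member below its 30°C level in wt DS.

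The members' wt DS/30 log2 ratio had a median of 1.17, against 1.89 for the other heat-induced genes and -0.01 for all genes over the floor. It reached 1 in 34 members (59.6%), against 82.4% of the other heat-induced genes and a background of 16.7%. It reached 2 in 9 members (15.8%), against 46.0% and a background of 6.75%. The members thus had a smaller wt DS/30 ratio than the pooled other heat-induced genes. The median wt HS/30 was similar (2.83 and 3.05), and the difference could not be tested. A low wt DS/30 was not particular to the members. The 22 genes above the os2 limit in HS alone, which shared the os2 DS/30 limit, had a median of 0.79, with 45.5% reaching 1 and 9.09% reaching 2. The 67 genes above it in DS alone had a median of 1.89, with 85.1% and 40.3%.

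The 9 members with a wt DS/30 log2 ratio of at least 2 were NCU01011 (6.43), NCU00250 (5.08), NCU04267 (4.97), NCU07142 (4.26), NCU07626 (3.60), NCU02765 (2.99), NCU06131 (2.73), NCU07318 (2.68) and NCU17083 (2.30). They include 8 of the 12 members with the largest wt HS/30, together with NCU07318, whose wt HS/30 log2 ratio was 2.31. NCU07318 had 58.3, 293 and 379 FPKM in wt 30, HS and DS, against 46.5, 43.1 and 33.3 FPKM in os2. It was 1 of only 2 members higher in wt DS than in wt HS, the other being NCU01011, against 77 of the 763 other heat-induced genes and 50.3% of all genes over the floor.

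Between HS and DS in wt the level was lower with 2-DG for nearly all members. The wt DS/HS log2 ratio was -1 or lower in 51 (89.5%), against 67.1% of the other heat-induced genes and a background of 16.7%. Among the 22 genes above the os2 limit in HS alone, the share was 90.9%. The wt DS/HS log2 ratio was 1 or higher in NCU01011 alone among the members, against a background of 22.3%. The lowest wt DS/HS ratios were those of NCU00877 (-3.02), NCU07626 (-2.79), NCU09043 (-2.72), NCU17232 (-2.69) and NCU07976 (-2.51). NCU17232 had 2.51, 32.9 and 4.25 FPKM in wt 30, HS and DS, and its 2.69, 3.67 and 3.74 FPKM in os2 nearly reached the wt DS value. The highest after NCU01011 (1.20) and NCU07318 (0.37) were NCU04844 (-0.44), NCU02099 (-0.61) and NCU07060 (-0.91).

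**Figure D4:**
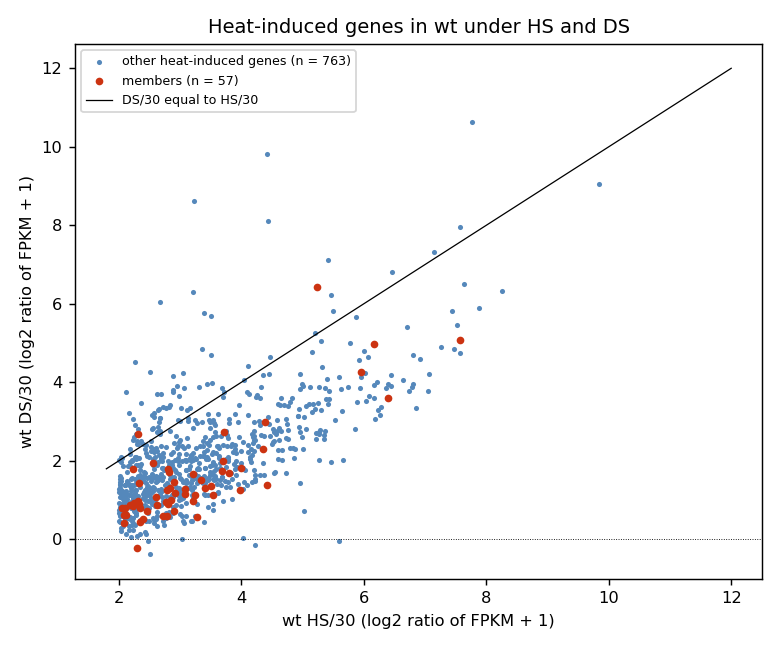
wt DS/30 against wt HS/30 as log2 ratios for the 57 members and the 763 other heat-induced genes, with the line of equal ratios. Only 2 members, NCU01011 and NCU07318, lie above the line, and 9 members reach 2 on the vertical axis.

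Compared between strains within a condition, the members stood apart most in HS, less in DS and little at 30°C, an order that the rule partly sets. The median os2/wt log2 ratio was 0 at 30°C, -2.85 in HS and -1.20 in DS; for the other heat-induced genes it was -0.04, -1.60 and 0.01. In HS, 56 of the 57 members were at -1 or lower, which the rule nearly fixes, against a background of 16.7%. In DS the rule used the os2 side but not the wt side. There 33 members (57.9%) were at -1 or lower, against 17.2% of the other heat-induced genes and a background of 17%. The rule held os2 DS down in the members, while 85.8% of the other heat-induced genes reached 1 in os2 DS/30. This contrast is therefore partly built in, and nothing is read from it. In both stresses wt exceeded all 3 os2 values for 52 members (91.2%; 41.2% of the other heat-induced genes and 12.7% of all genes over the floor), a count largely fixed by the rule, which used wt HS and the os2 libraries, and from which nothing is read. With columns scaled to the same total, the median of all genes over the floor moved to 0.81 for os2/wt DS, that of these members to -0.46, and 14 of them stayed at -1 or lower.

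The strain differences in DS were largest in NCU01011, NCU00250, NCU02765, NCU04267 and NCU07142, with os2/wt log2 ratios of -7.44, -6.84, -4.71, -4.51 and -4.06. At the other end, after NCU02849, NCU08038, NCU02150 and NCU07610 were at 0.13, 0.10 and 0.44. NCU08038 had 5.75, 46.3 and 11.6 FPKM in wt 30, HS and DS, against 10.6, 9.24 and 12.8 FPKM in os2, so the strains were alike in DS and apart in HS.

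At 30°C, 3 members had an os2/wt log2 ratio of -1 or lower, against a background of 1.73%, and 2 had 1 or higher, against 0.926%. Both 30°C libraries were used by the rule, so nothing is read from these counts. The 3 lower in os2 were NCU00250 (-1.55), NCU07976 (-1.20) and NCU01011 (-1.002). For NCU07976 and NCU01011 this compares 1.30 and 1.00 FPKM in wt 30 with 0 in os2 30. The 2 higher in os2 were NCU07610 (1.76) and NCU02849 (3.04). NCU02849 (chromosome I, 8923097 to 8924671) had 0.996, 13.1 and 5.60 FPKM in wt 30, HS and DS, against 15.4, 12.5 and 16.0 FPKM in os2. It was the only member whose os2 level was constantly at about the wt HS level, and the only one with an os2/wt DS log2 ratio of 1 or higher (1.37, background 8.14%), so it met the rule without being low in os2.

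The rule also limits the difference between os2 DS and os2 HS, since with os2 DS/30 below 0.5 the os2 DS/HS ratio can be high only where os2 HS was below os2 30, so its counts are a description. The os2 DS/HS log2 ratio reached 1 in NCU02765 (2.50) and NCU07142 (1.88), against a background of 8.52%, and both genes were nearer to their 30°C level in os2 DS than in os2 HS. It was -1 or lower in NCU16455 alone (-1.28, background 5.54%), which had 2.06, 12.1 and 3.73 FPKM in wt 30, HS and DS, against 1.47, 1.91 and 0.196 FPKM in os2. The same gene and NCU02765 were the 2 members with an os2 DS/30 log2 ratio of -1 or lower (-1.05 and -1.29), against a background of 19.2%.

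None of the genes of the pathway lists was a member. The lists held 5 to 15 genes each, and only 57 of the 6477 genes over the floor were members. Nothing is therefore read from their absence. Heat-induced in wt were 12.7% of the genes over the floor. Of 11 genes of the OS-2 pathway, asl-1 and nik-2 were heat-induced in wt. asl-1, for the transcription factor downstream of OS-2, had 21.9, 107 and 43.9 FPKM in wt 30, HS and DS, against 23.2, 30.7 and 58.1 FPKM in os2, and missed the rule only by its os2 DS/30 log2 ratio of 1.29. Of 5 genes known from other work to depend on OS-2, 4 were heat-induced in wt, of which cat-1, for catalase-1, and con-10, a conidiation gene, missed only by os2 DS. cat-1 had 3.64, 153 and 48.0 FPKM in wt, against 2.43, 2.20 and 7.85 FPKM in os2, and con-10 had 34.9, 585 and 35.7 FPKM in wt, against 25.6, 35.4 and 40.4 FPKM in os2.

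The others of these 5 genes missed the rule in os2 HS or in wt. ccg-1 had 282, 51910 and 12535 FPKM in wt 30, HS and DS, against 72.0, 210 and 414 FPKM in os2, and its os2 HS/30 log2 ratio of 1.53 kept it outside. bli-3 had a wt HS/30 log2 ratio of 7.07 and an os2 HS/30 log2 ratio of 1.44. gcy-1, for a glycerol dehydrogenase, had 60.3, 211 and 215 FPKM in wt, against 53.1, 11.4 and 54.7 FPKM in os2, a shape like that of NCU02765 and NCU07142, but its wt HS/30 log2 ratio of 1.79 was below the limit. Heat-induced genes made up 4 of 10 heat shock proteins, 3 of 5 glycerol genes, 4 of 7 catalases and dismutases, 3 of 10 conidiation genes and 6 of 15 clock and light genes. The background was 12.7% of the genes over the floor, and the lists were chosen with earlier results of these data known.

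The members were unevenly spread over the 7 chromosomes, which is given as a description without a test. Chromosome VI held 15 of them (26.3%), against 14.5% of the heat-induced genes and 10.2% of all genes, and chromosome I held 17 (29.8%, against 21.6% and 24.1%). Chromosomes II and V held 2 and 4 members, 2.94% and 2.96% of their heat-induced genes, while on chromosome VI members were 12.6% of the heat-induced genes. Within chromosome VI, 11 of the 15 started in the first 1.3 Mb, a limit chosen after the positions were seen, where 43 of 321 genes were heat-induced and members made up 25.6% of these. Those 11 were NCU07142, NCU11341, NCU07120, mus-44, NCU07060, fbp-1, NCU04823, NCU04844, NCU09799, NCU17083 and NCU05630. os-2 itself lies on chromosome IV.

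**Figure D5:**
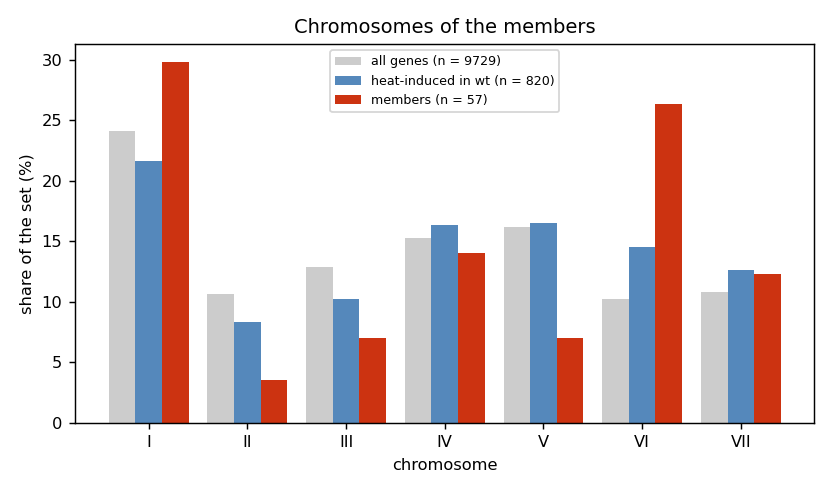
Share of all genes, of the genes heat-induced in wt and of the 57 members on each chromosome, in percent of each set. Chromosome VI holds 10.2% of the genes and 26.3% of the members, and chromosome V 16.2% and 7.02%.

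Members were next to another heat-induced gene in 24 cases (42.1%), against 36.2% of the other heat-induced genes and 17% of all genes over the floor. There were 26 such neighbours outside the set, whose median log2 ratio was 3.65 for wt HS/30 and 1.12 for os2 HS/30, and 2 of the 26 were below 0.5 in os2 HS/30, a share near the 8.78% of all 763 other heat-induced genes that were. Beside NCU04267, 62 bases away, NCU04266 had 15.6, 2350 and 2646 FPKM in wt 30, HS and DS, against 3.63, 30.2 and 24.9 FPKM in os2, so it was higher at 45°C in os2 as well, at a level far below that of wt. Beside NCU08038, NCU08037 had 5.05, 1860 and 485 FPKM in wt, against 11.4, 141 and 213 FPKM in os2.

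Members adjoined each other in 2 places. NCU07626 and NCU07627 lie 965 bases apart on chromosome IV, and both were near or at 0 except in stressed wt. NCU17083 and NCU05630 lie 241 bases apart on chromosome VI, and NCU05630 had 0.513, 13.0 and 1.96 FPKM in wt 30, HS and DS, against 0.458, 0.938 and 0.407 FPKM in os2. On the other side of NCU17083 lies the heat-induced NCU05631, which overlaps it by 388 bases. NCU05631 had 0, 13.2 and 2.24 FPKM in wt, against 0.154, 0.436 and 1.09 FPKM in os2. These 3 successive genes were highest in wt HS and lower in wt DS, where NCU17083 had 3.94 FPKM. In the other libraries they were at 1.09 FPKM or less. The share of members with a member next to them was 7.02% (4 genes), against 3.41% of the other heat-induced genes and 1.27% of all genes over the floor.

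Overlap with a neighbour bears on 12 members, since the sources used here do not say whether fragments were counted by strand. For 6 of them the overlapping gene was heat-induced too. NCU07120, with 2.86, 38.2 and 10.1 FPKM in wt 30, HS and DS, against 2.46, 3.27 and 3.34 FPKM in os2, overlaps NCU07119 by 2458 bases, and NCU07119 had 0.525, 22.95 and 8.31 FPKM in wt, against 0.462, 1.63 and 2.20 FPKM in os2. NCU07060, with 28.6, 149 and 78.6 FPKM in wt, against 18.3, 14.97 and 25.0 FPKM in os2, overlaps NCU07061 by 958 bases, and NCU07061 had 0.537, 98.6 and 27.8 FPKM in wt. NCU00864, with 18.2, 106 and 30.8 FPKM in wt, against 17.0, 14.5 and 19.5 FPKM in os2, overlaps a heat-induced gene on both sides, by 196 and 57 bases. The level of these genes cannot be told apart from that of the partner in the shared stretch.

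The median gene length of the members was 1884 bases, against 1937 for the other heat-induced genes and 2356 for all genes over the floor. The ratios that depend most on the 1 FPKM added are those in which 1 of the libraries compared was near 0. Among them are wt HS/30 of NCU04267 (0.0605 FPKM in wt 30 and 75.7 in wt HS) and of NCU07626 (0.283 and 107). There were 15 members below 20 FPKM in wt HS. Of these 15, NCU02849 alone exceeded 10 FPKM in any os2 library.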

How the data were processed

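Polyadenylated RNA of 6 libraries was sequenced in paired ends from a TruSeq kit. According to the submitters' notes and the study's methods, the authors demultiplexed reads with CASAVA 1.8.2, ran FastQC, mapped the reads by TopHat on the 74a_12 supercontigs and the Broad transcriptome, and obtained FPKM from Cufflinks. They deposited 1 FPKM value per gene and library in 1 table. Other versions, the step that put the columns on a common scale and the use of strand are not given in the sources used here. The Cuffdiff comparisons were not used.

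Groups follow the labels' strain and treatment. From the deposited FPKM values, log2 ratios of FPKM + 1 were computed for 9 comparisons of 2 libraries. Fold differences between libraries are quotients of FPKM without the added 1. Shares over all genes use the 6477 genes with at least 10 FPKM in 1 library, and called means a log2 ratio of 1 or -1, or of 2 where stated. With 1 library per group there is no test, no error and no p-value, and depth per gene is unknown. 1 row without an identifier was left out, and 0 other columns of values were present. The members and the gene lists were chosen with earlier results of these data known, the lists by locus or RefSeq symbol, and the lists are not independent evidence. Named were members with a gene or product name, those with the largest ratios, levels and wt DS/HS ratios, those nearest the limits, those adjoining another member, and genes behind a statement.

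Symbols, coordinates and neighbours were read from RefSeq's gene table for assembly NC12, where 9729 of 9730 identifiers were found, and product names from the study. Promoter and protein sequences were not used here. Alternatives were 2 pseudocounts (0.1 and 10), 3 scalings (total, median ratio and upper quartile), no floor, a floor of 30 FPKM, os2 limits of 0 and 1, and a wt limit of 3. The calculations, tested on simulated data, used Python 3.11.15, pandas 2.3.3, numpy 2.4.6 and matplotlib 3.10.9.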

Additional observations from a re-analysis of the deposited data

Results flagged for a closer look

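Some members were higher in wt at 45°C and lower in os2, a difference in direction between strains that was not tested, since there was 1 library of each, and whose signs the rule partly fixed. For HS/30 these were NCU02765, with a log2 ratio of -3.79 in os2 and 4.39 in wt, NCU07142 (-1.78 and 5.96), NCU07610 (-1.65 and 2.12) and NCU00877 (-1.16 and 4.42). For DS/30 it was NCU02765, with -1.29 in os2 and 2.99 in wt.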

How the results depend on the processing

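Of 70 values (7 results under 10 alternatives), 58 stayed within 1.5-fold of the reported value, 12 moved further, and no median beyond 1 on the log2 scale changed sign. The number of members, 57, was most dependent on the limits: it was 16 with an os2 limit of 0, 130 with an os2 limit of 1, 24 with a wt limit of 3, 36 with a floor of 30 FPKM, and 28 with columns scaled to the same total, of which 20 were among the 57. A pseudocount of 0.1 gave 57 members, 46 of them shared, and a pseudocount of 10 gave 55, only 22 of them shared. The number of members with a wt DS/30 log2 ratio of at least 2, 9 as reported, was 5 with equal totals and 4 and 26 with os2 limits of 0 and 1. The median wt DS/HS log2 ratio was -2.34 with equal totals, the median os2/wt HS ratio -3.98 with a wt limit of 3, and the median os2/wt DS ratio -1.86 with an os2 limit of 0 and -1.86 with a wt limit of 3. The limits changed these values by changing which genes were members. Equal totals moved wt HS/30 by 0.41, wt DS/30 by -0.32, os2 HS/30 by 0.77 and os2 DS/30 by 0.59 for every gene before the 1 was added. Among the same 57 genes, the number with a wt DS/30 log2 ratio of at least 1 was 25 with equal totals, 41 with a pseudocount of 0.1 and 15 with a pseudocount of 10, against 34. No paired analysis was possible because each group had 1 library. No library could be left out for the same reason, and planned promoter and protein descriptions were not made.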
